A study of Mus musculus with 2 samples.

Results

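This account covers 10 mouse genes of Toll-like receptor sensing: the receptors Tlr2, Tlr3, Tlr4, Tlr7, Tlr9 and Tlr13, the co-receptors Cd14, Ly86 and Cd180, and the adaptor Myd88. Members were taken by gene symbol, and all 10 were found among the 26033 genes of both count matrices. Droplet single-cell RNA sequencing from the 3′ end (10x Chromium Next GEM v3.1) was run on cells sorted from whole brain of adult mice. By the labelled sort these were mural cells with fibroblasts (CD13+ and/or CD140a+ without O4), endothelial cells (CD31+), astrocytes (ACSA-2+), border-associated macrophages (BAMs, CD11b hi and F4/80+) and microglia (CD11b+ and F4/80 hi). There was 1 library per genotype, and the number of animals behind each is not given in the labels. The control library was Csf1rfl/fl, with floxed alleles of the receptor for colony-stimulating factor 1, and the mutant library was Mrc1Cre:Csf1rfl/fl, with the same floxed alleles plus Cre driven by the mannose receptor gene Mrc1. Both groups thus carried the floxed gene, and the control carried no Cre. Cre can act in any cell that uses Mrc1, whether in the brain or outside it. By its title the study is about perivascular macrophages that depend on interleukin-34.

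Toll-like receptors recognise conserved microbial molecules and some molecules from damaged cells. TLR2 and TLR4 sit at the cell surface, where CD14 hands them lipid ligands, while TLR3, TLR7, TLR9 and TLR13 sit in endosomes and read nucleic acids. MD-1, the product of Ly86, pairs with the receptor-like protein CD180 in a complex related to TLR4 and its partner MD-2. MYD88 carries the signal of all these receptors except TLR3, which uses TRIF instead. In the brain, microglia are the parenchymal macrophages and BAMs line the vessels, meninges and choroid plexus.

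Ly86 and Cd180 encode the subunits of that complex, lie on the same chromosome and had like patterns over cell classes, so the bases before their start sites are shown. They were taken from the RefSeq promoter table of build GRCm38.p6, which held 7 of the 10 genes (Tlr4, Tlr7 and Cd14 are named only). Both stretches are on the plus strand and end at the base before the annotated start. The Ly86 stretch, chr13:37345095-37345207, was shortened from 250 to 113 bases because the GENCODE start lies inside the RefSeq window. The Cd180 stretch, chr13:102693297-102693546, holds 250 bases. Capitals mark the ETS core motif GGAA, which reads TTCC where it lies on the minus strand.
Ly86: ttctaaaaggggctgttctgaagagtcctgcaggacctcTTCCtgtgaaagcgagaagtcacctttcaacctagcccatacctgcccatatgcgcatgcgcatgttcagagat
Cd180: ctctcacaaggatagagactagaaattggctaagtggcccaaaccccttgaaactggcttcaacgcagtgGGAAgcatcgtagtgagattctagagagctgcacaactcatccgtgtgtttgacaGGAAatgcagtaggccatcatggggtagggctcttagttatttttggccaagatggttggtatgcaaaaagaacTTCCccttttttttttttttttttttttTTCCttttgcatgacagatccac
The Ly86 stretch holds 1 match and the Cd180 stretch 4. Of all 32851 windows of 250 bases in the table, from 27025 genes, 93.5% hold GGAA on either strand, so a match is common. On both strands 2 further motifs were searched. The longer ETS-type motif GAGGAA, which overlaps the core, is in 23.3% of all windows, and the AP-1 motif TGANTCA is in 6.75%. Neither was found in the windows of Ly86 and Cd180. Among the other genes held, the windows of Tlr9 and Tlr13 each had 1 GAGGAA, and that of Tlr9 had 2 TGANTCA. A match describes letters only.

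In GRCm38 coordinates Ly86 spans chr13:37345208-37419036 and Cd180 spans chr13:102693558-102739629, both on the plus strand. Among the surface receptors, Tlr2 lies at chr3:83836272-83841767 on the minus strand and Tlr4 at chr4:66827584-66930284 on the plus strand. Tlr3 lies at chr8:45395665-45411080 on the minus strand, and Tlr9 at chr9:106222598-106226883 on the plus strand. Tlr7, at chrX:167304929-167330558 on the minus strand, and Tlr13, at chrX:106143204-106160493 on the plus strand, are X-linked. Cd14 lies at chr18:36725067-36726798 and Myd88 at chr9:119335934-119341411, both on the minus strand. In the annotation Myd88 overlaps Slc22a14 on its own strand and Acaa1a on the other, Cd180 overlaps Mast4 on the other strand, and Tlr3 overlaps the antisense gene Gm45542. How the counting used strand is not given in the sources used here, so the counts of Myd88, Cd180 and Tlr3 could include RNA of these neighbours.

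The control matrix held 8739 barcodes and 85716531 unique molecular identifiers (UMIs, 1 per captured RNA molecule), and the mutant matrix 8735 barcodes and 82806348 UMIs. The libraries shared 17 barcodes, of which 9 were kept as cells. The filters, which removed predicted doublets, left 5614 cells of the control and 6130 of the mutant. Doublets that were not predicted can remain among them. A cell was placed in a class when at least 3 of that class's 8 markers had a UMI and their summed UMIs were at least 3 times those of each of the other 12 classes. This gate used none of the 10 genes. It left 514 control cells (9.16%) and 728 mutant cells (11.9%) without a class. Microglia-like cells numbered 3309 and 3599 (median 8384 and 8208 UMIs), and BAM-like cells 288 and 116 (median 7536.5 and 7787 UMIs). Near the gate, 242 control and 240 mutant microglia-like cells had a dominance under 6 times, and 201 and 205 cells without a class had microglia as their leading class. For BAM-like cells these numbers were 36 and 16, and 41 and 14. Markers held out of the gate separated the classes to different degrees. Olfml3 stood at 1498 CPM in control microglia-like and 94.4 CPM in BAM-like cells, and Dab2 at 35.2 and 2648 CPM. The microglial gene Fcrls differed less, at 2234 and 1860 CPM, and so did the macrophage transcription factor gene Maf, at 960 and 2029 CPM. The targeted gene Csf1r stood at 2333 CPM in control and 1850 CPM in mutant microglia-like cells, and at 1398 and 1151 CPM in BAM-like cells. Counts were taken at the 3′ end and the labels do not name the floxed exons, so this level does not check the deletion.

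Levels are given as CPM, in which a gene's UMIs are scaled to a class total of 1000000, and are compared within a gene only. Intervals in parentheses are exact 95% intervals that cover counting error alone, not the spread between animals or cells. With 1 library per genotype no test was possible, and no p-value is given. A gene met the size rule when it had at least 50 UMIs over the 2 groups compared, a ratio of at least 1.5 or at most the inverse, and an interval without 1. For a difference between cell classes the rule had to hold in the same direction in both libraries.

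For 9 of the 10 genes the level was highest in microglia-like or BAM-like cells among the 6 classes compared. With each cell thinned to 2000 UMIs, 9 of the 10 were detected in a larger share of microglia-like cells than of astrocyte-like, endothelial-like, fibroblast-like and choroid plexus epithelium-like cells in both libraries. Tlr3 was the exception, with its highest level in astrocyte-like cells. Ly86 was found in 98.9% of control and 98.6% of mutant microglia-like cells (95.2% and 95.2% after thinning). Choroid plexus epithelium, an epithelial class deeper than the macrophages (median 17423.5 and 14850 UMIs), gives the background: Ly86 had a UMI in 15.2% and 13.7% of those cells, or 2.48% and 2.60% after thinning. Tlr9, a receptor for unmethylated CpG DNA, was at the other end, with a UMI in 3.17% and 3.06% of microglia-like cells (0.630% and 0.737% after thinning). In choroid plexus epithelium-like cells Tlr9 had 0 UMIs in both libraries, which allows up to 0.283 and 0.190 CPM. Here and below, the limit for 0 UMIs is that of a floor of 3 UMIs per class and library.

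**Figure D1:**
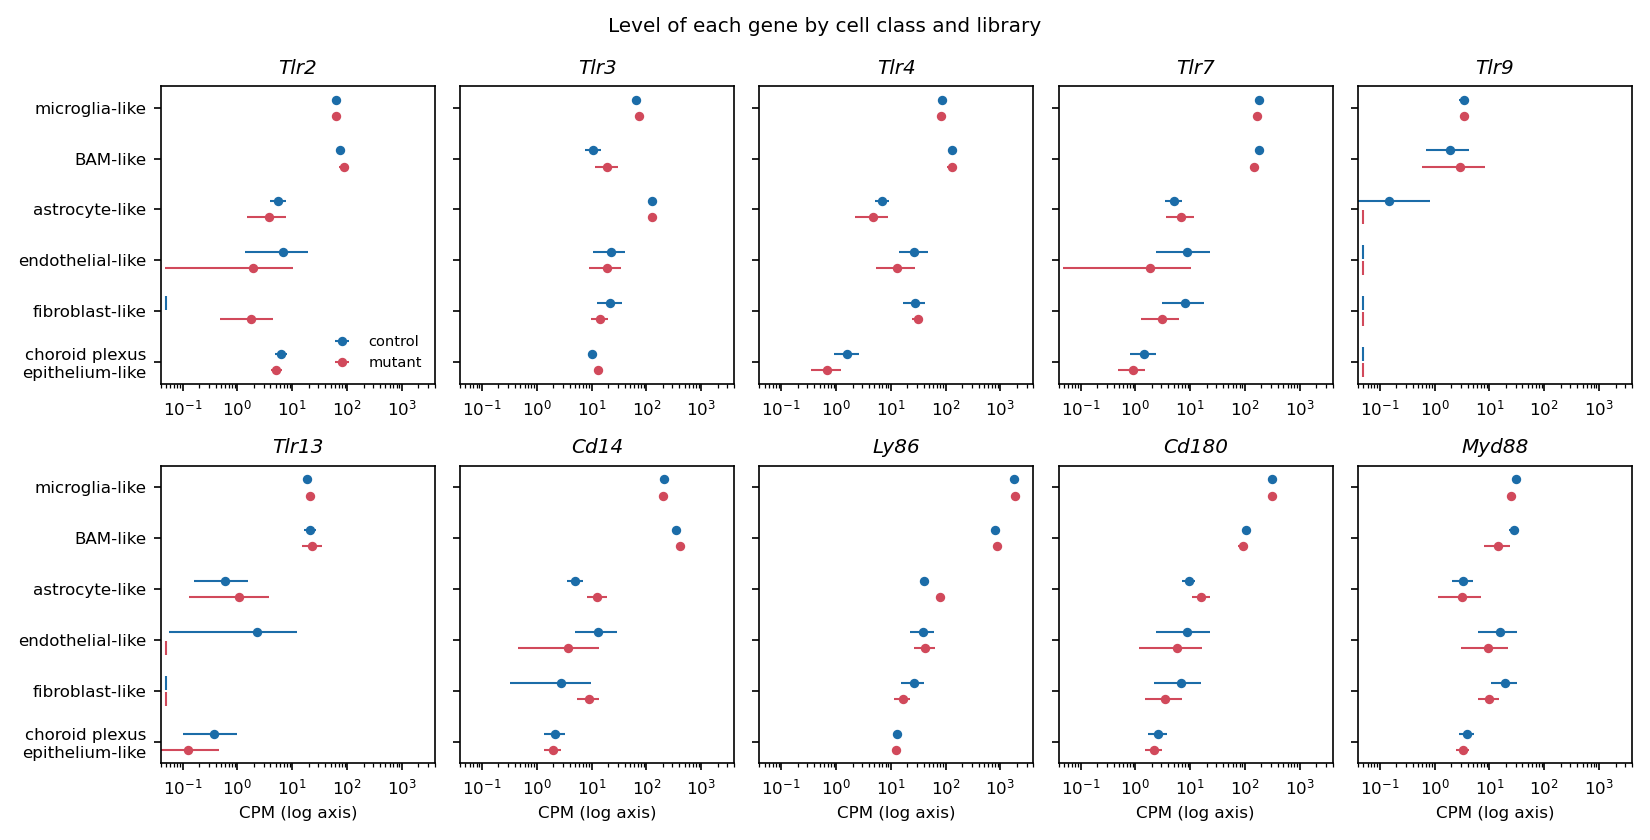
Level of each gene in CPM on a log axis, for 6 cell classes and both libraries; points are class levels, bars exact 95% intervals of counting error, and a short tick at the left edge marks 0 UMIs. Microglia-like and BAM-like cells sit highest for every gene but Tlr3, which is highest in astrocyte-like cells at 124.8 and 125.2 CPM.

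BAM-like and microglia-like cells differed in 5 of the 10 genes, all in the same direction in both libraries. Cd14 and Tlr4 were higher in BAM-like cells, and Tlr3, Ly86 and Cd180 were lower. Of 11442 genes measured in this comparison, 22.4% met the same rule in either direction, 10% higher and 12.3% lower. The median log2 ratio of the 10 genes was -0.03 in the control and -0.18 in the mutant, beside -0.13 and -0.09 over all genes measured.

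Cd14, the lipid-binding co-receptor of TLR4 and TLR2, stood at 350.4 CPM (330–371.8) in control BAM-like cells and 207.4 CPM (202.5–212.5) in control microglia-like cells, a ratio of 1.69 (1.58–1.80). In the mutant library it stood at 407.3 CPM (369.4–448.1) and 200.7 CPM (195.9–205.7), a ratio of 2.03 (1.84–2.24). The intervals of the classes did not overlap in either library. After thinning, Cd14 was detected in 49.8% and 53.0% of BAM-like cells against 32.0% and 30.9% of microglia-like cells (84.7%, 84.5%, 72.4% and 69.0% before thinning).

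Tlr4, the receptor for bacterial lipopolysaccharide, was also higher in BAM-like cells. Its level was 129.8 CPM (117.5–143.0) against 86.0 CPM (82.8–89.2) in the control, which gave a ratio of 1.51 (1.36–1.68). In the mutant it was 128.4 CPM (107.5–152.1) against 81.4 CPM (78.3–84.6), a ratio of 1.58 (1.32–1.88). The control ratio lies at the edge of the size rule, and without the 1 cell with most Tlr4 UMIs in each group it was 1.496 and missed the rule. Tlr2, the receptor for bacterial lipoproteins, leaned the same way without meeting it: 73.3 CPM (64.2–83.5) against 62.2 CPM (59.5–65.0) in the control and 88.8 CPM (71.6–108.9) against 63.2 CPM (60.5–66.0) in the mutant. Its ratios were 1.18 (1.03–1.35) and 1.41 (1.13–1.73).

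The MD-1 and CD180 pair went the other way. Ly86 stood at 811.8 CPM (780.6–844.0) in control BAM-like cells and 1784 CPM (1770–1799) in microglia-like cells, a ratio of 0.455 (0.437–0.473). In the mutant the levels were 862.9 CPM (807.3–921.4) and 1871 CPM (1857–1886), a ratio of 0.461 (0.431–0.493). The ratios of the 2 libraries lay within each other's interval. Cd180 was lower still relative to microglia, at 103.3 CPM (92.4–115.2) against 309.2 CPM (303.2–315.4) in the control and 92.7 CPM (75.1–113.2) against 313.3 CPM (307.2–319.5) in the mutant. Its ratios were 0.334 (0.298–0.373) and 0.296 (0.239–0.362). Ly86 was nonetheless detected in most BAM-like cells, 75.4% and 78.0% after thinning, and Cd180 in 17.8% and 16.8%.

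Tlr3, the receptor for double-stranded RNA, showed the lowest BAM to microglia ratio of the 10. It had 34 UMIs and 10.8 CPM (7.51–15.2) in control BAM-like cells against 65.3 CPM (62.5–68.2) in microglia-like cells, a ratio of 0.166 (0.115–0.233). In the mutant it had 20 UMIs and 19.3 CPM (11.8–29.8) against 72.8 CPM (69.9–75.8), a ratio of 0.265 (0.162–0.411). Expressed as a percentage, the Tlr3 level of BAM-like cells was 16.6% and 26.5% of the microglial one. Olfml3, the microglial gene held out of the gate, sets a scale for RNA of microglia in these cells and stood at 6.30% and 6.57%. The level of Tlr3 in BAM-like cells was thus low but above that of Olfml3, and the part of microglial RNA in it was not tested.

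The other endosomal receptors did not differ between the macrophage classes by the size rule. Tlr7, a receptor for single-stranded RNA, stood at 184.3 CPM (169.6–200) in BAM-like and 179.7 CPM (175.1–184.4) in microglia-like cells of the control, a ratio of 1.03 (0.940–1.12). In the mutant the levels were 148.6 CPM (126.1–174.1) and 166.5 CPM (162.1–171), a ratio of 0.893 (0.756–1.05). Both intervals exclude a difference of 1.5-fold. Tlr13, which recognises bacterial ribosomal RNA and is absent from the human genome, stood at 21.0 CPM (16.3–26.8) against 18.3 CPM (16.8–19.8) in the control and 23.2 CPM (14.8–34.5) against 21.3 CPM (19.7–22.9) in the mutant. Tlr9 had 6 and 3 UMIs in BAM-like cells, 1.91 and 2.90 CPM, against 3.38 and 3.47 CPM in microglia-like cells. Its ratio of 0.566 (0.203–1.27) in the control allows both a large difference and none.

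Myd88 stood at 28.1 CPM (22.5–34.6) in BAM-like and 30 CPM (28.1–32.0) in microglia-like cells of the control, a ratio of 0.935 (0.743–1.17). In the mutant it had 15 UMIs and 14.5 CPM (8.10–23.9) in BAM-like cells against 25 CPM (23.3–26.8), a ratio of 0.579 (0.322–0.960). The size rule was met in the mutant library alone, so Myd88 is not counted among the 5 genes.

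**Figure D2:**
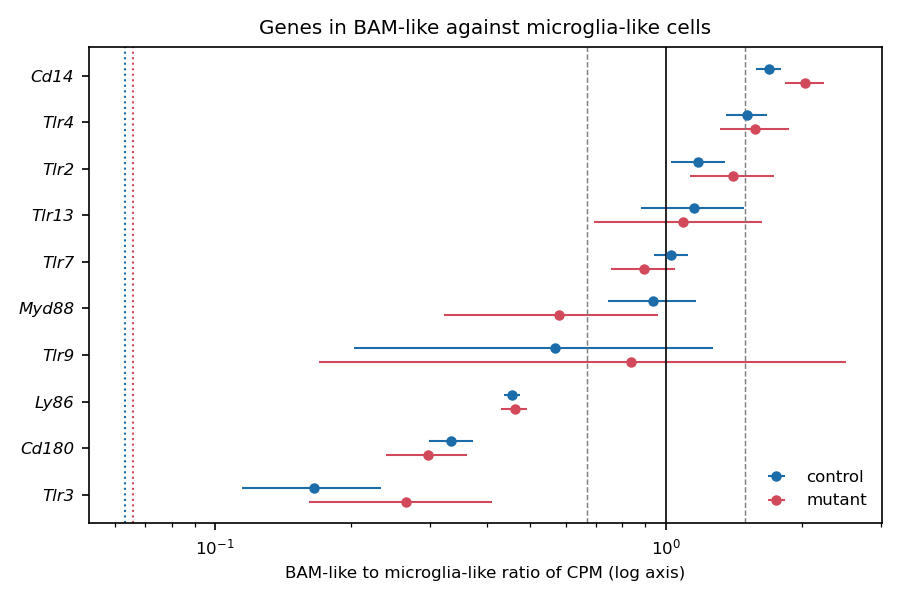
Ratio of the BAM-like to the microglia-like level for each gene and library on a log axis; bars are exact 95% intervals, dashed lines mark the 1.5-fold limits, and dotted lines mark the ratio of Olfml3, a microglial gene held out of the gate, at 6.30% and 6.57% as a percentage. Cd14 and Tlr4 sit above 1.5 and Ly86, Cd180 and Tlr3 below the inverse in both libraries.

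BAM-like cells were divided at 2000 CPM summed over the MHC class II genes H2-Aa, H2-Ab1, H2-Eb1 and Cd74, which present peptides to T cells. This gave 258 low and 30 high cells in the control and 85 low and 31 high in the mutant, with 8 cells in each library within 1.5-fold of the limit. None of the 10 genes met the rule in both libraries, beside 2.03% of 3784 genes measured. Tlr3, Tlr9, Tlr13 and Myd88 had under 50 UMIs in at least 1 library. Ly86 was 956.3 CPM (879.3–1038) in high and 778.1 CPM (744.1–813.1) in low cells of the control, and 999.5 CPM (892.7–1116) and 802.4 CPM (738.2–870.7) in the mutant. These ratios of 1.23 (1.12–1.35) and 1.25 (1.08–1.43) were alike but under 1.5. Cd180 differed between the libraries in this respect. It stood at 97.7 CPM (58 UMIs) in high and 104.6 CPM in low cells of the control, but at 40.9 CPM (13 UMIs) in high and 115.6 CPM in low cells of the mutant. The ratio of high to low cells was 0.933 (0.690–1.24) and 0.353 (0.181–0.638), and the difference between these ratios was not tested.

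Microglia-like cells were divided by genes of activation and of the interferon response. Activation-gated cells had a UMI of at least 4 of Clec7a, Cst7, Itgax, Lpl, Spp1, Ccl3, Ccl4 and Axl (94 control and 100 mutant cells). Tlr2 was the gene of the 10 that met the size rule there, beside 2.59% of 11180 genes higher and 3.63% in either direction. It stood at 114.4 CPM (99.5–130.8) in activation-gated against 58.6 CPM (55.9–61.4) in other microglia-like cells of the control, a ratio of 1.95 (1.69–2.25). In the mutant it stood at 135.2 CPM (118.3–153.8) against 58.4 CPM (55.7–61.2), a ratio of 2.32 (2.01–2.66). The gated cells were deeper, with a median of 15890 and 14095 UMIs against 8266.5 and 8094.5. After thinning, which removes that difference in depth, Tlr2 was detected in 20.6% and 22.5% of activation-gated and 10.5% and 10.3% of other cells. The other 9 genes had ratios between 0.794 (Tlr3, mutant) and 1.19 (Tlr13, mutant).

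Interferon-gated cells had a UMI of at least 4 of Ifit1, Ifit2, Ifit3, Isg15, Oasl2, Rsad2, Usp18 and Ifi204 (41 control and 39 mutant cells). None of the 10 genes met the size rule in both libraries, beside 1.82% of 11131 genes. Tlr3 came near it, at 93.8 CPM (74.4–116.8) against 65.0 CPM (62.1–68.0) in the control and 105.3 CPM (81.6–133.7) against 73.0 CPM (69.9–76.1) in the mutant. The ratio was 1.44 in both libraries, with intervals of 1.14 to 1.81 and 1.11 to 1.84. Tlr2 had a ratio of 1.20 in the control and 1.67 (1.27–2.15) in the mutant. The mutant value rests in part on 1 cell: without the cell with most Tlr2 UMIs in each group, an alternative chosen after seeing the data, it was 1.28 (0.929–1.73) and missed the rule.

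The genes also varied over the microglial clusters, which were built without the 10 genes and without the pathway genes described further on. A cluster was called microglial when over 50% of its cells were microglia-like by the gate. In all, 7 such clusters held at least 50 cells in both libraries. Their levels cover every kept cell of the cluster, also those that the gate did not call microglia-like. Tlr2 ranged from 34.8 to 89.6 CPM in the control and from 45.1 to 91.5 CPM in the mutant, lowest in cluster 13 and highest in cluster 4 in both. Cd14 ranged from 142.3 to 249.6 CPM and from 94.0 to 229.2 CPM, and was also lowest in cluster 13. Cd180 was instead highest in cluster 13, at 369.2 and 380.7 CPM, and lowest in cluster 2, at 264.8 and 273.2 CPM. Ly86 was the most even of the 10, from 1732 to 1853 CPM in the control and from 1781 to 2063 CPM in the mutant. Cluster 13 was shallow, with a median of 2588 and 2690 UMIs per cell, and the part of depth in its levels was not tested.

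**Figure D3:**
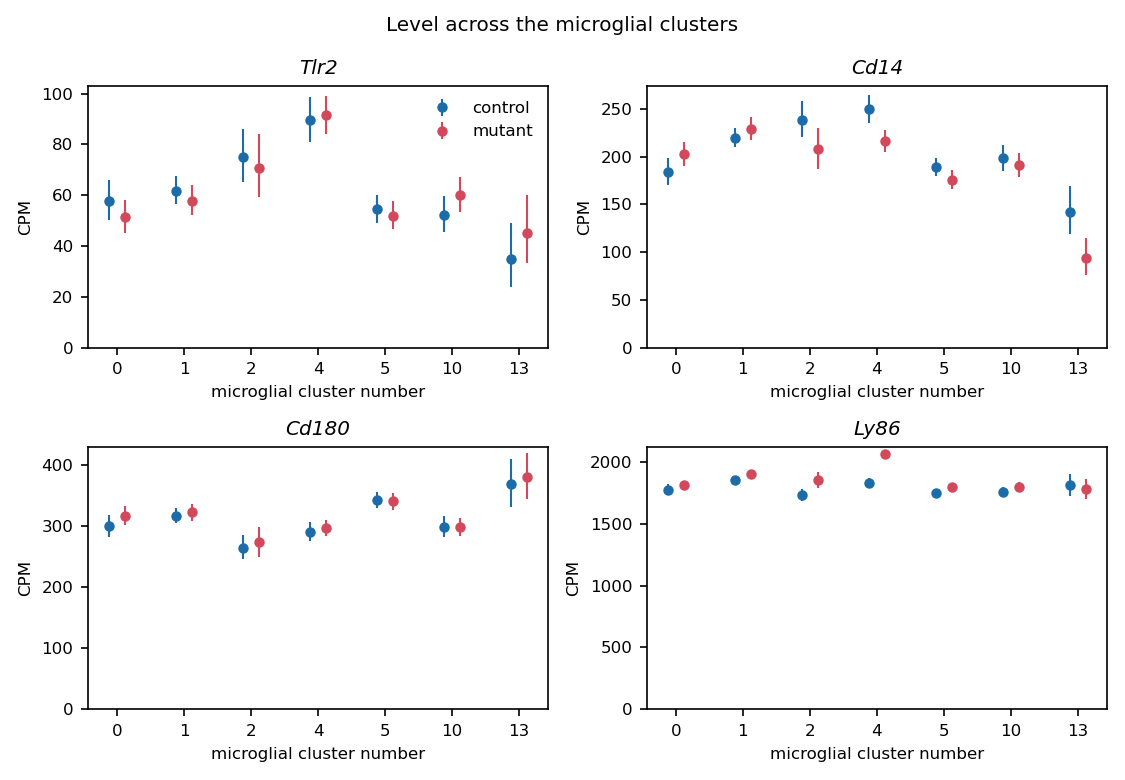
Level in CPM of Tlr2, Cd14, Cd180 and Ly86 in the 7 microglial clusters with at least 50 cells per library; points are cluster levels and bars exact 95% intervals, and each vertical axis starts at 0. Tlr2 is highest in cluster 4 in both libraries, Cd180 is highest in cluster 13, and Ly86 spans 1732 to 2063 CPM.

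Between genotypes, the 10 genes differed little in microglia-like cells. None met the size rule, beside 6.57% of 12673 genes measured in either direction, 1.89% higher and 4.68% lower. Ratios of mutant to control ran from 0.834 (0.759–0.917) for Myd88 to 1.16 (1.04–1.30) for Tlr13. Myd88 was 30 CPM in control and 25 CPM in mutant cells, and Tlr13 was 18.3 and 21.3 CPM. Tlr3 at 1.11 (1.05–1.18), Ly86 at 1.05 (1.04–1.06) and Tlr7 at 0.926 (0.892–0.962) had intervals without 1 but small differences. For each of the 10 genes the interval excluded a 1.5-fold difference in either direction. The ratio was 0.968 for Cd14, 1.01 for Cd180, 1.02 for Tlr2, 0.947 for Tlr4 and 1.03 (0.780–1.35) for Tlr9, the gene with fewest UMIs (108 and 112).

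In BAM-like cells 1 of the 9 genes measured met the size rule, beside 7.01% of 7973 genes in either direction, 3.7% higher and 3.31% lower. This was Myd88, with 88 UMIs and 28.1 CPM in control cells and 15 UMIs and 14.5 CPM in mutant cells, a ratio of 0.516 (0.277–0.898). The share of cells with a Myd88 UMI was 23.3% and 12.1%, or 5.26% and 2.82% after thinning. The mutant value rests on 15 molecules in 116 cells. With cells taken from clusters in place of the gate the ratio was 0.604 (0.337–1.02), and in BAM-like cells low in MHC class II alone 0.590 (0.281–1.13). Neither met the rule. Markers of monocytes and dendritic cells moved with genotype in the same cells. Of 8 such markers 6 had a UMI in control BAM-like cells, at 97.9 CPM summed, and 4 in mutant ones, at 11.6 CPM. In the cells high in MHC class II the sum was 153.2 CPM in control and 3.14 CPM in mutant cells. Plac8 and Ly6c2 were at 0 in the control, and Chil3, Flt3, Cd209a and Napsa in the mutant. Cd209a, with 225 UMIs, and Ccr2, with 61, made up most of the control sum. Monocyte or dendritic-like cells themselves had Myd88 at 70.1 and 43.2 CPM. Among the BAM-like cells without a UMI of any of the 8 markers (227 control and 114 mutant cells, an alternative chosen after seeing the data) Myd88 stood at 27.4 and 13.9 CPM, a ratio of 0.507 (0.261–0.920). The share of BAM-like cells high in MHC class II also differed, 30 of 288 in the control and 31 of 116 in the mutant, and its part in the Myd88 value was not tested.

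The other 8 genes measured in BAM-like cells missed the rule. Tlr4 was 129.8 CPM in control and 128.4 CPM in mutant cells, a ratio of 0.989 (0.807–1.21), and Cd14 was 350.4 and 407.3 CPM, a ratio of 1.16 (1.04–1.30). Tlr2 was 73.3 and 88.8 CPM, a ratio of 1.21 (0.940–1.55). Tlr7 leaned lower, at 184.3 and 148.6 CPM with a ratio of 0.807 (0.671–0.965). Tlr3 leaned higher, at 10.8 and 19.3 CPM with a ratio of 1.78 (0.971–3.18), and in cells with 3000 or more UMIs the ratio was 1.98 (1.07–3.58) and met the rule. Olfml3, the microglial gene above, was 94.4 CPM in control and 104.2 CPM in mutant BAM-like cells, and the part of microglial RNA in the Tlr3 value was not tested. Ly86 had a ratio of 1.06 (0.984–1.15), Cd180 of 0.897 (0.707–1.13) and Tlr13 of 1.10 (0.660–1.78). Within BAM-like cells high in MHC class II, Cd180 was 97.7 CPM in control and 40.9 CPM in mutant cells, a ratio of 0.418 (0.210–0.773) over 30 and 31 cells, while in low cells the ratio was 1.11 (0.853–1.42).

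**Figure D4:**
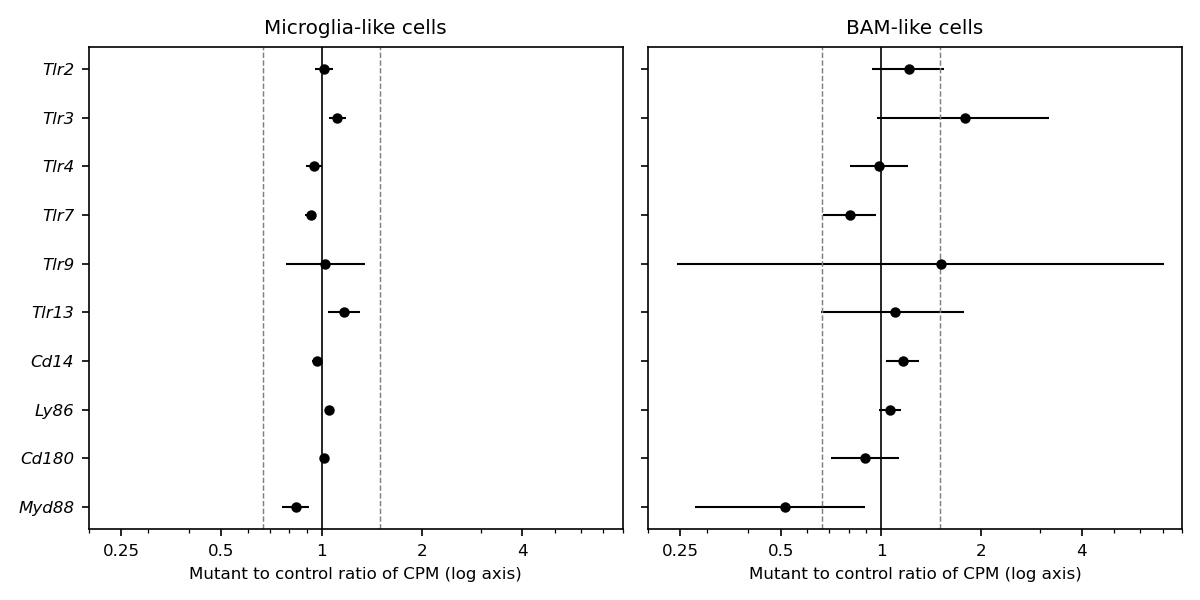
Mutant to control ratio of CPM on a log axis for each gene in microglia-like (left) and BAM-like cells (right); points are ratios, bars exact 95% intervals, and dashed lines the 1.5-fold limits. In microglia-like cells all ratios lie between 0.834 and 1.16, and in BAM-like cells Myd88 lies lowest at 0.516.

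Outside the macrophages, each level was set beside the one that free microglial RNA would give. The summed level of C1qa, C1qb and C1qc in a class, as a percentage of the microglial level, was 2.63% and 3.85% in astrocyte-like, 1.12% and 1.02% in choroid plexus epithelium-like, 3.9% and 3.85% in endothelial-like and 2.44% and 1.53% in fibroblast-like cells (control, then mutant). RNA from 1 source keeps its genes in the same ratio, so these percentages give the level expected for each gene. Of 40 combinations of gene and class, 11 were above the expected level with an interval without 1 in both libraries. The 11 combinations were Tlr3 and Myd88 in all 4 classes, Tlr4 in fibroblast-like and endothelial-like cells, and Tlr2 in choroid plexus epithelium-like cells. For Cd14, Ly86, Cd180, Tlr7, Tlr9 and Tlr13 no class was above in both libraries.

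Tlr3 in astrocyte-like cells was by far the clearest of these. It had 835 UMIs and 124.8 CPM (116.5–133.6) in control cells and 237 UMIs and 125.2 CPM (109.8–142.2) in mutant cells, above the microglial 65.3 and 72.8 CPM. A Tlr3 UMI was found in 55.8% and 49.8% of these cells, or 20.5% and 19.8% after thinning, and the level was 72.7 (67.8–77.8) and 44.6 (39.1–50.7) times the expected one. Its genotype ratio was 1.003 (0.865–1.16). In the other 3 classes Tlr3 also exceeded the level that free astrocyte RNA would give: 10.4 and 13.1 CPM against 0.795 and 0.405 CPM in choroid plexus epithelium-like, 22.3 and 18.8 CPM against 4.78 and 4.32 CPM in endothelial-like, and 21.9 and 14.2 CPM against 8.38 and 8.11 CPM in fibroblast-like cells. None of the 8 astrocyte markers was among the 10 leading genes of the astrocyte-like class, which included Ntm and Lsamp in both libraries, and no marker of another class was among them.

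Tlr4 in fibroblast-like cells stood at 27.4 CPM (20 UMIs) in control and 31.0 CPM (70 UMIs) in mutant cells, 13.1 (7.99–20.2) and 24.8 (19.4–31.4) times the expected level. In endothelial-like cells it stood at 26.7 CPM (12 UMIs) and 13.2 CPM (7 UMIs). These levels lay under the microglial 86.0 and 81.4 CPM. Tlr2 stood at 6.24 CPM (66 UMIs) and 5.14 CPM (81 UMIs) in choroid plexus epithelium-like cells, 8.95 (6.92–11.4) and 7.94 (6.31–9.87) times the expected level. Myd88, an adaptor of interleukin-1 receptors as well as Toll-like receptors, stood at 19.2 and 9.75 CPM in fibroblast-like and 3.87 and 3.30 CPM in choroid plexus epithelium-like cells, 11.5 or more times the expected level in each.

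Between genotypes, 3 of the 10 genes met the size rule in astrocyte-like cells, beside 5.53% of 10615 genes in either direction and 3.73% higher. Cd14 was 5.08 and 12.7 CPM, Ly86 39.8 and 77.7 CPM, and Cd180 9.42 and 15.9 CPM in control and mutant. The levels expected from free microglial RNA were 5.46 and 7.74 CPM for Cd14 and 46.9 and 72.1 CPM for Ly86. For Cd180 they were 8.13 and 12.1 CPM. Observed levels were 0.932 and 1.64 times the expected ones for Cd14, 0.847 and 1.08 times for Ly86. For Cd180 they were 1.16 and 1.31 times. The part of free RNA in these genotype differences was not tested. In the mutant 1 cell held 27.9% of the Ly86 UMIs of this class. Without the cell with most UMIs of the gene in each group the ratios of Ly86 and Cd180 were 1.71 (1.34–2.16) and 1.78 (1.05–2.93), and Cd14 fell under the minimum of 50 UMIs. In endothelial-like, fibroblast-like and choroid plexus epithelium-like cells none of the 10 genes met the rule, beside 8.28% of 4131, 8.24% of 7829 and 3.49% of 10537 genes.

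**Figure D5:**
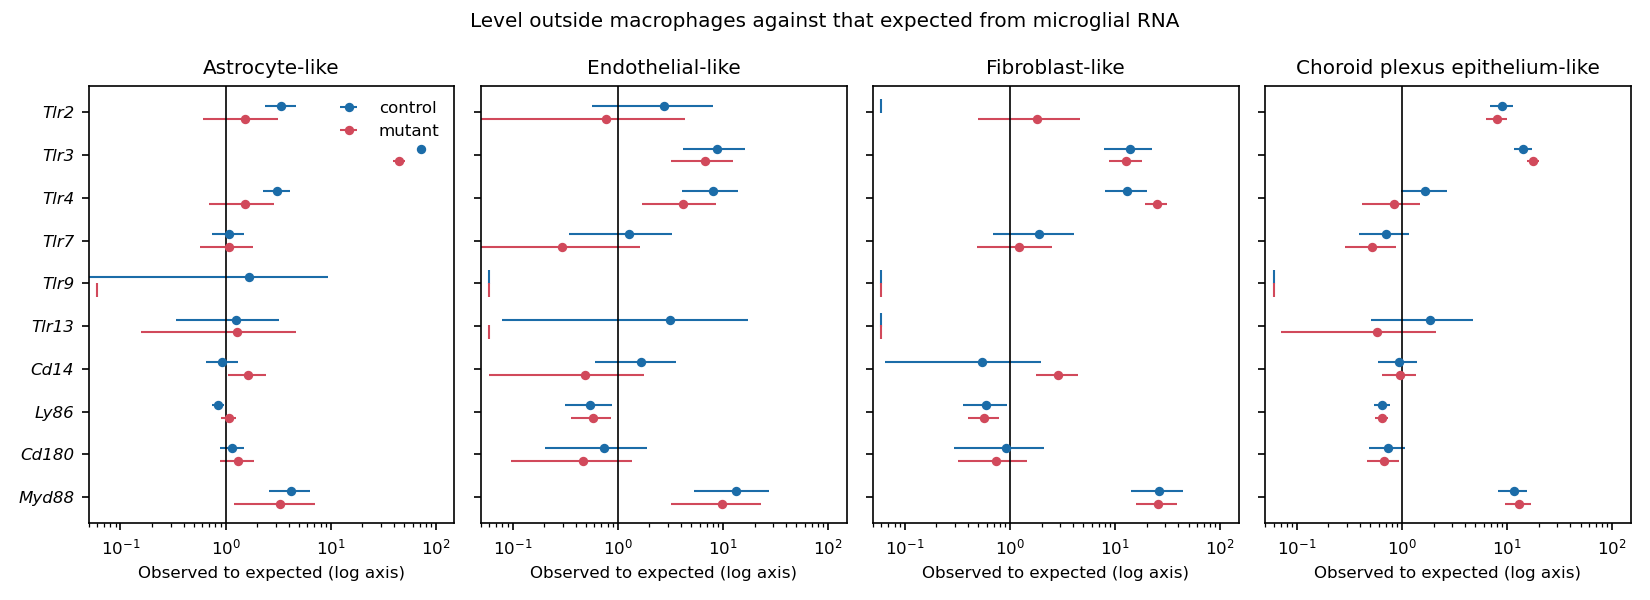
Level of each gene divided by the level expected from free microglial RNA, on a log axis, in 4 classes outside the macrophages and in both libraries; bars are exact 95% intervals, the line at 1 is the expected level, and a short tick at the left edge marks 0 UMIs. Tlr3 in astrocyte-like cells lies at 72.7 and 44.6, while Cd14, Ly86, Cd180 and Tlr7 lie near or under 1 in most classes.

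Beside the 10 genes, 53 other genes of Toll-like receptor sensing were listed by role, and all were in the matrices. Between BAM-like and microglia-like cells 12 of 48 measured in both libraries were higher by the rule and 8 lower, with median log2 ratios of -0.12 and -0.02. Over all genes measured 10% were higher and 12.3% lower. Among the other receptors 3 of 5 measured were higher and 1 was lower. Tlr8, another receptor for single-stranded RNA, stood at 50.1 and 50.2 CPM in BAM-like cells, against 0.125 CPM (4 UMIs) and 0.0928 CPM (3 UMIs) in microglia-like cells. Tlr12, a receptor for profilin of protozoa, stood at 3.83 and 4.83 CPM against 27.0 and 27.6 CPM.

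Of the co-receptors 2 of 3 were higher in BAM-like cells. Cd36, a scavenger receptor that assists TLR2, stood at 368.3 and 198.8 CPM against 1.53 and 0.959 CPM. Ly96, which encodes the TLR4 partner MD-2 and was chosen after its values were seen, stood at 139 and 131.3 CPM against 65.8 and 59.7 CPM. Of the 4 endosomal proteases 1 was higher and 3 were lower. Ctss, a cathepsin that can trim endosomal receptors, stood at 1928 and 1986 CPM against 4685 and 5094 CPM.

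None of the 4 adaptors or the 10 kinases and ligases measured met the rule between the macrophage classes, and of 6 chaperones and transporters 1 was lower. Of 7 transcription factors 1 was higher and 2 were lower. The higher was Irf7, an inducer of type I interferon, at 32.5 and 42.5 CPM against 4.04 and 2.88 CPM. Of 4 inhibitors 2 were higher. Of 5 target genes 3 were higher and 1 was lower, which was Il6, with 1 and 0 UMIs in BAM-like cells against 11.4 and 9.75 CPM in microglia-like cells (0 UMIs allows up to 2.90 CPM).

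Between genotypes 1 of 49 pathway genes measured met the rule in microglia-like cells, beside 6.57% of all genes measured there and 1.89% higher. This was the chemokine gene Ccl5, at 1.91 CPM (61 UMIs) in control and 5.91 CPM (191 UMIs) in mutant cells, a ratio of 3.09 (2.31–4.20). A Ccl5 UMI was found in 19 control and 31 mutant cells, and 1 mutant cell held 41.4% of those of its class. Without the cell with most Ccl5 UMIs in each library the levels were 1.47 and 3.47 CPM, a ratio of 2.35 (1.66–3.38). In BAM-like cells 3 of 43 were higher and 1 was lower, beside 3.7% higher and 3.31% lower over all genes measured. The higher were Slc15a3, an endosomal peptide transporter, at 78.1 and 121.6 CPM (1.56, 1.25–1.94), and the kinase genes of the MYD88 complex Irak1, at 31.6 and 51.2 CPM (1.62, 1.14–2.29), and Irak2, at 70.5 and 112 CPM (1.59, 1.26–1.998). The lower was Cd36, at 368.3 and 198.8 CPM (0.540, 0.463–0.627). Without the cell with most UMIs of the gene in each library Irak1, Irak2 and Cd36 still met the rule, while Slc15a3 had a ratio of 1.48 (1.17–1.86) and missed it.

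The genes whose pattern was most like each of the 10 were sought over 12 points, 6 classes in 2 libraries, among 11100 genes with at least 500 UMIs, by Pearson's correlation of log2(CPM + 1). The points share libraries and free RNA, so the values describe these classes only. Cd180 was most like Arhgap4 (0.994) and Ly86 (0.993), and Ly86 was most like Ctss and Vav1 (0.996 each). Tlr13 was most like Tlr1 (0.991), Cd14 was most like Lpxn (0.991), and Tlr7 was most like Myo1f (0.995). Tlr4, the receptor also seen in fibroblast-like cells, was most like Filip1l (0.993) and Esr1 (0.987). Tlr3, with its astrocyte-like level, was most like Eva1a (0.947) and Adcy8 (0.944). Tlr2 was most like Gng2 (0.971) and Myd88 most like Plekha2 (0.968).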

How the data were processed

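The values deposited by the authors are raw counts of UMIs for each gene in each barcode, written by Cell Ranger 7.1.0 per the file headers, and the submitters' processing notes name the builds GRCm38.p6 and mm10. How reads were aligned, whether introns were counted, how cells were called and whether free RNA was corrected is not given in the sources used here. Barcodes with at least 500 genes were scored for doublets with Scrublet (scanpy 1.11.5, expected rate 0.008 per 1000 barcodes), which marked 174 of 8081 (2.15%) and 197 of 7974 (2.47%). These, and barcodes above 10% mitochondrial UMIs, were removed. No deposited cell annotation was used, so classes were rebuilt from per-cell marker gates and are written "X-like", and they can differ from the study's. UMIs were summed per class and library. Ratios of CPM carry exact conditional intervals for a pair of Poisson counts and shares were computed before and after thinning to 2000 UMIs (scipy 1.17.1, numpy 2.4.6, Python 3.11.15). Classes with under 50 cells in a library were not compared, other than the divisions of microglia-like and BAM-like cells. Leiden clusters (igraph 0.11.9, 2000 variable genes, 30 components, 15 neighbours, resolution 1) were built without the 10 genes and the pathway genes. Trimmed-mean scaling (edgeR 4.0.16, R 4.3.3) was an alternative. The ratio and its interval were tried on simulated Poisson counts, which is the model the interval assumes. That trial checks the calculation only and does not cover UMIs that gather in single cells. Gene locations came from GENCODE M21 on GRCm38, in which 25637 of 26033 identifiers were found.

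The 10 genes, the marker lists and the pathway list were chosen with earlier results of these data known. A pathway gene was named when it met the size rule between genotypes in microglia-like or BAM-like cells, or was among the 3 farthest from 1 on either side in the BAM to microglia ratio. Some marker and leading genes are not reported here. GGAA was marked in the printed sequences after GAGGAA gave no match in them.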

Additional observations from a re-analysis of the deposited data

How the results depend on the processing

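No paired analysis was possible because each genotype has 1 library with no replicate number, and for the same reason no library could be left out. The 10 genes had 390 values under the alternatives, in the comparisons of genotypes and of the macrophage classes. Of these, 378 kept their side of the size rule and, where it was unmet, stayed within their main interval. Another 3 kept their side but moved beyond that interval, 4 met the rule newly, 5 no longer met it and none reversed. A minimum of 10 UMIs leaves every ratio unchanged and could only add genes under 50 UMIs, so its values among the 378 say little about stability. With equal weight per cell no interval was computed, so there the rule was the ratio and the minimum of 50 UMIs alone. The values that newly met the rule include the Tlr9 ratios of this alternative, 0.558 in the control and 0.396 in the mutant. The number of genes differing by genotype in BAM-like cells was 1, but 2 in cells with 3000 or more UMIs (Tlr3 added), 0 with clusters in place of the gate, and 0 in cells low in MHC class II alone, an alternative chosen after seeing the data. In microglia-like cells it was 0 under all 9 alternatives run. The count of 5 between BAM-like and microglia-like cells was 4 without the cell with most UMIs (Tlr4 lost) and 6 with equal weight per cell (Tlr9 added, by ratio without an interval), and 5 under the other 8. With cells thinned to 4000 UMIs the same 9 genes were detected in a larger share of microglia-like cells than of the 4 classes outside the macrophages. The cause of these changes was not tested. Depth limits Tlr9, which had under 10 UMIs in the BAM-like cells of each library, and Tlr3, Tlr13 and Myd88 there, each under 100.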

Other observations

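Monocyte or dendritic-like cells were too few to compare, with 11 in the control and 25 in the mutant. Ly86 stood at 849.5 CPM (697.5–1025) and 530.4 CPM (456.6–612.9) in them, and Cd180 at 187 CPM (24 UMIs) and 115.3 CPM (40 UMIs). Cd14 had 4 and 12 UMIs there, 31.2 and 34.6 CPM, below its level in microglia-like and BAM-like cells of both libraries. Myd88 had 9 and 15 UMIs, 70.1 and 43.2 CPM.

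Cells without a class held intermediate levels of all 3 co-receptors. Their Ly86 level was 446.1 CPM (514 control cells) and 271 CPM (728 mutant cells), Cd180 at 81.1 and 50.9 CPM, and Cd14 at 77.3 and 37.3 CPM. Barcodes over the mitochondrial limit that met the microglial gate (251 and 197) had 147.1 and 118.4 CPM of Cd14, against 207.4 and 200.7 CPM in the cells kept. Their Cd180 level was 291.5 and 332.8 CPM and their Tlr3 level 78.2 and 94.4 CPM.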
